A study of Mus musculus with 14 samples.

Results

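KLRG1lo effector CD8+ T cells labelled Id2KOBimKO were compared with wild-type (WT) KLRG1lo cells by expression array. The comparison took the 2 arrays whose titles carry Id2KOBimKO and KLRG1lo and the 5 arrays titled WT KLRG1lo, which is 7 of the 14 arrays in the series. The other 7 were WT KLRG1hi cells (3 arrays) and Id2KO and BimKO KLRG1lo cells (2 arrays each). Those last 2 groups are used here to set the double mutant beside each single one. The KLRG1hi arrays entered only the spread of the fit and the choice of probe sets and genes to test.

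All groups had the strain label C57BL/6J. Donor cells from fetal liver chimeras went into congenic recipients 1 day before infection with Listeria expressing ovalbumin, and were sorted by flow cytometry on day 6. The sample descriptions of the WT, Id2KO and BimKO groups name OTI, a transgenic T cell receptor for an ovalbumin peptide, and the description of the Id2KOBimKO group does not. Every comparison with the double mutant carries this difference in labels, and its part in the results was not tested. The genotypes are given as Wild type and Id2KOBimKO, with no allele, deleted exon or age in the labels. Nothing in them says whether replicates came from separate chimeras or recipients, so p-values reflect only how far these samples spread, which may be technical. RNA was amplified in 2 rounds before labelling, and beyond KLRG1 the labels do not describe the gate that parted donor cells from the recipients' own T cells.

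Id2 belongs to the inhibitor of DNA binding proteins, which lack a DNA-binding region and hold E proteins off their sites. E proteins (Tcf3, Tcf4, Tcf12) bind the E box, a short DNA motif, and control many lymphocyte genes. In CD8+ T cells answering an infection, Id2 is known for supporting effector cells and Id3 for its link to memory precursors. Bim, the product of Bcl2l11, is a death-promoting protein of the Bcl-2 family that removes many effector cells as an infection clears, and T cells without it are known to persist. KLRG1 is an inhibitory receptor of terminal effector cells, and a KLRG1lo sort leaves the fraction that holds more memory precursors.

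Only 9 of 14438 genes passed in the double mutant against WT, which is 0.0623% of the genes tested. Cxcr5, Myb, Actn1, Atp1b1, Pls1, Slc43a1 and Ttbk2 rose (7 genes, 0.0485%), and Id2 and Cx3cr1 fell (2 genes, 0.0139%). The test was limma's, a linear model with a moderated variance, with a threshold of 0.05 on the p adjusted by Benjamini and Hochberg's method over the genes tested, and all differences are log2 differences in RMA signal. The 9 differences were 2.05-fold to 2.71-fold in size. Over all genes tested 49.8% had a difference above 0. With so few genes passing, 0 passing in a gene list is no result about its members. At an unadjusted p under 0.05 there were 571 genes (3.95%), against 722 that this threshold gives on average where nothing differs. The calls depend on which arrays are used. In limma 0 genes passed without Id2KOBimKO array 1 (359 at an unadjusted p under 0.05) or array 2 (261), and 0 passed without WT array 1 (497), array 4 (364) or array 5 (458), while 7 of the 9 passed without WT array 3 and all 9, with 4 more, without WT array 2. Centring each array on its median left 1 gene, Atp1b1, and limma's test against a change of 1.5-fold left 0 (19 at an unadjusted p under 0.05).

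**Figure D1:**
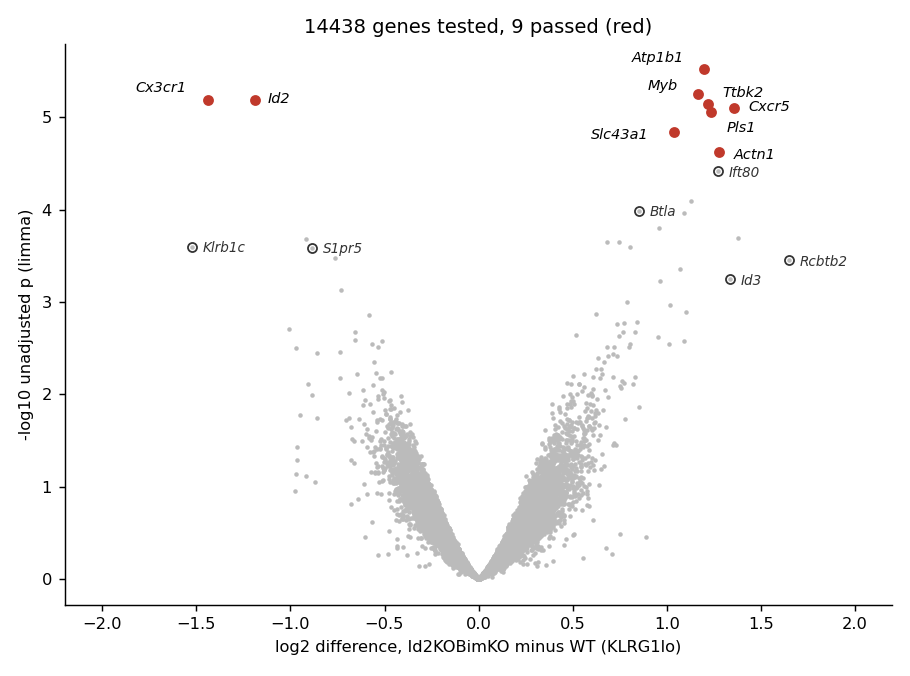
Each point is 1 of 14438 genes tested, with the log2 difference in signal between 2 Id2KOBimKO and 5 WT KLRG1lo arrays on the x axis and -log10 of limma's unadjusted p on the y axis. The 9 red points are the genes that passed, and the ringed points are genes named in the text that did not, Ift80 (adjusted p = 0.0555) being the nearest to the threshold.

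The labels were checked against the genes they name. Id2 had a log2 signal of 9.84 and 9.64 on Id2KOBimKO arrays 1 and 2, and of 11.13, 11.16, 10.78, 10.80 and 10.79 on WT arrays 1 to 5. Both mutant arrays lay below every WT array. The difference was -1.19 (SE 0.19, limma adjusted p = 0.0182), a 2.28-fold lower signal, and 9.74 ± 0.14 (SD, n = 2) on the mutant arrays was still well above the 5.01 to 5.39 at which the median probe set without a gene name lay on the 14 arrays. Bcl2l11 had 7.59 and 8.01 on the mutant arrays and 7.44 to 7.92 on the WT arrays (median 7.57), so the groups overlapped. Its difference was 0.20 (SE 0.18, 95% interval -0.18 to 0.58, limma adjusted p = 0.785). Each gene has 1 probe set, and where it lies against the deleted part is not given in the labels, so absence of Bim rests on the label.

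Klrg1, the gene of the sorted protein, gave 5.24 on Id2KOBimKO array 1 and 6.82 on array 2, against 6.02 to 6.74 (median 6.12) on the WT arrays. The WT values thus lay between those of the mutant arrays, whose SD was 1.12 (n = 2) against 0.29 (n = 5) in WT, and the difference of -0.24 did not pass (95% interval -0.93 to 0.44; 0.55 without mutant array 1). CD8+ T cell transcripts were high throughout: Cd8a had 11.75 and 11.70 on the mutant arrays and 11.29 to 11.68 in WT, and Cd3e 10.67 and 10.84 against 10.54 to 10.80. Cd4 (5.38 and 5.18; WT 5.21 to 5.96) lay near the level of probe sets without a gene name in both groups. Of 15 genes of CD8 T cell identity tested, 14 lay above 0 with a median of 0.16, which was 0.03 against WT arrays 1 and 2 alone, and 0 passed.

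The arrays differ in background in a way the labels do not name. Parted at the widest gap in the median signal of probe sets without a gene name (0.085 log2), Id2KOBimKO array 1 fell in the lower set with WT arrays 1 and 2, and Id2KOBimKO array 2 in the higher set with WT arrays 3 to 5. Arrays also differed in spread: their interquartile range in log2 was 2.78 and 2.65 on the mutant arrays and 2.46 to 2.82 on the WT arrays. Within both sets, each of the 9 genes differed from WT in its overall direction. This follows from mutant and WT arrays that did not overlap for any of the 9, and is no separate check. Against WT arrays 1 and 2 alone 1 gene passed in limma (Id2), and against WT arrays 3 to 5 alone 18 did, the 9 among them. Between the double mutant arrays 92 genes differed by over 1 log2, against 30 to 555 for the 10 pairs of WT KLRG1lo arrays.

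E boxes are the sites from which Id2 keeps E proteins, so promoters of genes that passed are shown first, with every E box (CANNTG, searched on both strands) in capitals. RefSeq promoter windows on GRCm38.p6, from 250 bases before to 50 after the start, were found for 8 of the 9 genes and not for Cxcr5. The windows of Cx3cr1, the gene with the larger fall of the 2 that passed, Myb and Pls1, both of which rose, and Atp1b1, the gene with the smallest p, are printed 5′ to 3′, all on the minus strand at chr9:120068247-120068546, chr10:21160935-21161234, chr9:95845230-95845529 and chr1:164458306-164458605.
Cx3cr1: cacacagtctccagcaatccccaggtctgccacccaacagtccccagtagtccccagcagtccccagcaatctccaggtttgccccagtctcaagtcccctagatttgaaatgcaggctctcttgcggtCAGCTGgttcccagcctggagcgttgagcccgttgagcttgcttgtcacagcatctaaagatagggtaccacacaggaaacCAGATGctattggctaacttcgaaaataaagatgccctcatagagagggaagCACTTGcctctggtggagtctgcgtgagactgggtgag
Myb: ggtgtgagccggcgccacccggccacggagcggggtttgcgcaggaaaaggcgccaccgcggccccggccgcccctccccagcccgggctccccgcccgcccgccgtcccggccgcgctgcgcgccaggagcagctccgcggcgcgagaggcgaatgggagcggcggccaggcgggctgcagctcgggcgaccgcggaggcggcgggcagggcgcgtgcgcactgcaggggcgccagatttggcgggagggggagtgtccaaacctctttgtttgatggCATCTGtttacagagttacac
Pls1: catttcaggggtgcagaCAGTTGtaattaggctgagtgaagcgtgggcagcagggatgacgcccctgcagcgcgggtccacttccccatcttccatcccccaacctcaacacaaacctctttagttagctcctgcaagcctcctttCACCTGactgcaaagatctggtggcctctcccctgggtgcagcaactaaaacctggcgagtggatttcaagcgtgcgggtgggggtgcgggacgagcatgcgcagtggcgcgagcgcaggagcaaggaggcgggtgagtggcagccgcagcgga
Atp1b1: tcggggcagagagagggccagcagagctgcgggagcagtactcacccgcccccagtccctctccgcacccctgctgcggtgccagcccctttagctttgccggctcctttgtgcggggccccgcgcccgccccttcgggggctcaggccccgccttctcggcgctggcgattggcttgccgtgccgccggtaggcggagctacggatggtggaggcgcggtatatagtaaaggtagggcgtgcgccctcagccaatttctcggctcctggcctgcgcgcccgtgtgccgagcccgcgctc
Cx3cr1 had 3 E boxes, Pls1 and Slc43a1 2 each, Myb, Actn1 and Id2 1 each, and Atp1b1 and Ttbk2 0, so 6 of 8 windows held one. Of the first windows of the 11427 tested genes with an entry, 65.2% held a CANNTG, and the same held for 72.1% of all 27025 genes in the table. CAGCTG, an E box that E proteins are known to bind, occurred once in Cx3cr1 and once in Id2 (16.1% of tested genes), and CAGGTG, searched on both strands, once in Pls1 (19.4%). These are matches of letters in 300 bases, and whether a factor bound them was not tested.

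Of 30 homing receptors tested, which place T cells in tissues, 1 rose (Cxcr5), 1 fell (Cx3cr1) and 28 did not pass. Of all genes 0.0485% rose and 0.0139% fell, and both receptors were chosen for this comparison with earlier results known. Cxcr5, the receptor for the chemokine that guides cells into B cell follicles, had a log2 signal of 7.47 and 7.07 on the mutant arrays and 5.86, 6.25, 6.12, 5.64 and 5.68 on WT arrays 1 to 5. The highest WT array was below them, and the difference was 1.36 (SE 0.21, 2.56-fold, limma adjusted p = 0.0182). On WT arrays 4 and 5 its signal lay not far above the median of probe sets without a gene name (5.21 and 5.24). Cx3cr1, the fractalkine receptor of circulating effector cells, had 6.82 and 6.99 against 8.21, 8.56, 8.02, 8.48 and 8.44. Here both mutant arrays were more than 1 log2 below the lowest WT array, and the difference was -1.44 (SE 0.22, 2.71-fold lower, adjusted p = 0.0182). Against the WT arrays of their own background set, Cxcr5 was 1.41 higher on mutant array 1 and 1.25 higher on array 2, and Cx3cr1 was -1.56 and -1.33. In RNA from sorted cells, fewer cells with a transcript and less of it per cell cannot be told apart.

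Myb, a transcription factor of blood progenitors that also supports the self-renewing kind of CD8+ T cell, was the transcription factor that passed. It had 8.65 and 8.89 on the mutant arrays and 7.42, 7.81, 7.61, 7.59 and 7.58 in WT. No WT array reached the mutant values, and the difference was 1.17 (SE 0.18, 2.25-fold, limma adjusted p = 0.0182). Against the WT arrays of the same background set it was 1.03 and 1.30. Of 51 T cell transcription factors tested, 1 rose and 0 fell (all genes: 0.0485% and 0.0139%), and the list had a median difference of 0.13.

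Actn1 and Pls1 code for proteins that tie actin filaments together, alpha-actinin and a plastin. Actn1 had 10.16 and 9.98 on the mutant arrays and 8.98, 9.25, 8.49, 8.48 and 8.74 on the WT arrays. Those groups were apart although the WT arrays varied more for it (SD 0.33, n = 5) than for Myb (SD 0.14), and the difference was 1.28 (SE 0.22, 2.43-fold, limma adjusted p = 0.0383). Pls1 had 7.53 and 7.25 against 6.18, 6.11, 5.78, 6.49 and 6.21. Every mutant value was again above every WT value, with a difference of 1.23 (SE 0.20, 2.35-fold, adjusted p = 0.0182).

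Atp1b1 and Slc43a1 code for transport proteins of the cell membrane. Atp1b1, the beta subunit of the sodium-potassium pump, had 6.90 and 6.68 on the mutant arrays and 5.66, 5.33, 5.65, 5.57 and 5.74 in WT. The groups did not overlap, and the difference was 1.20 (SE 0.18, 2.30-fold, limma adjusted p = 0.0182). Its WT signals lay not far above the median of probe sets without a gene name on those arrays (5.01 to 5.24), so the fold has little precision. Slc43a1, a carrier of large neutral amino acids, had 7.66 on both mutant arrays and 6.45, 6.95, 6.56, 6.49 and 6.66 in WT. Its mutant arrays were likewise above all WT arrays, with a difference of 1.04 (SE 0.17, 2.05-fold, adjusted p = 0.0258), the smallest of the 9.

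Ttbk2 codes for a kinase needed for the assembly of the primary cilium. It had 7.24 and 7.30 on the mutant arrays and 6.16, 6.10, 6.09, 6.04 and 5.86 in WT. Every WT array lay more than 1 log2 below the mutant arrays, and the difference was 1.22 (SE 0.19, 2.33-fold, limma adjusted p = 0.0182). Non-overlapping arrays alone were common: 764 genes (5.29%) had both mutant arrays above all WT arrays and 1049 (7.27%) below.

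**Figure D2:**
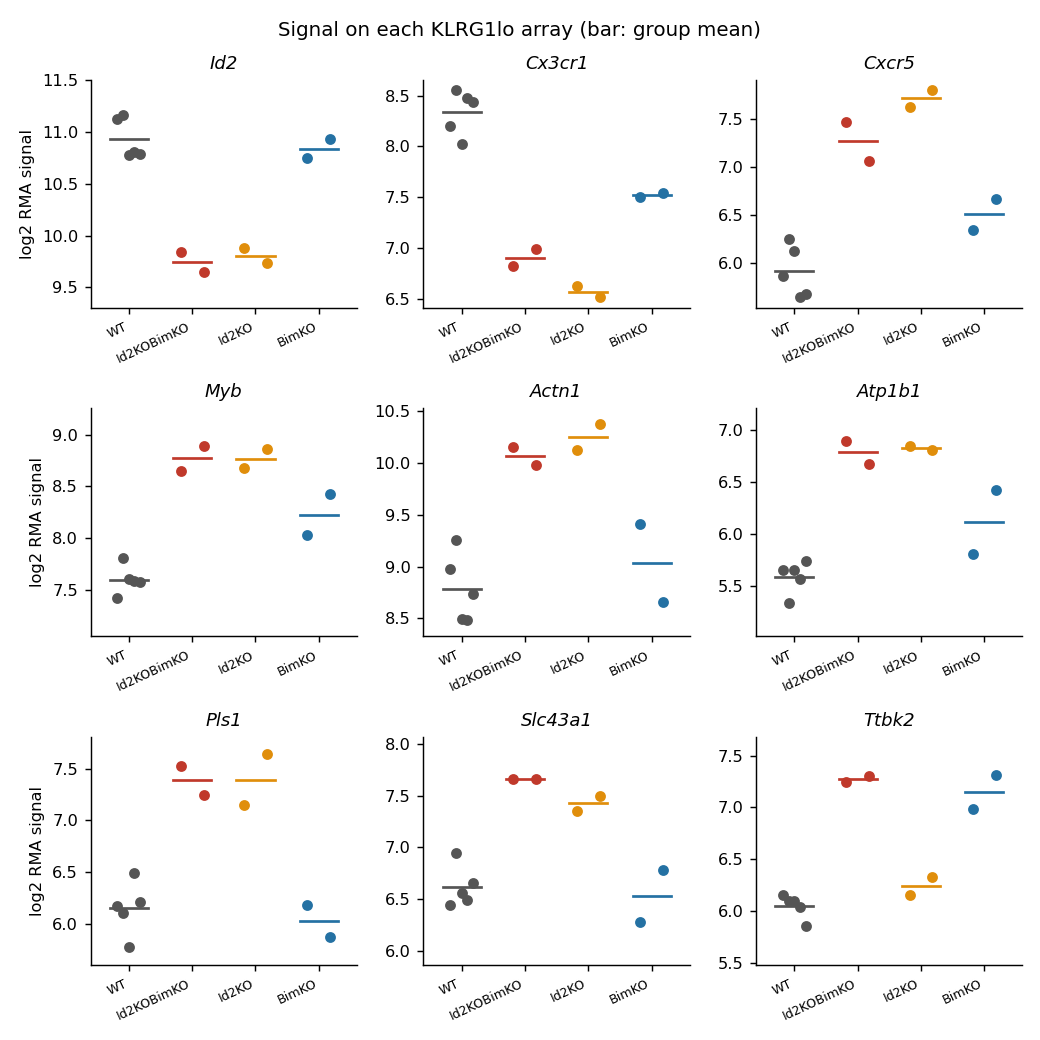
Log2 RMA signal (y axis, which differs between panels and does not start at 0) of the 9 genes that passed, with 1 point per array of WT (5 arrays), Id2KOBimKO, Id2KO and BimKO KLRG1lo cells (2 arrays each) and a bar at the group mean. In each panel both Id2KOBimKO points lie apart from all 5 WT points, and for Ttbk2 the BimKO points (6.98 and 7.31) rather than the Id2KO points (6.16 and 6.33) lie beside them.

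The same WT arrays served as controls for Id2KO and BimKO, so the 3 comparisons share them and their values are set side by side only. The Id2KO difference was nearer to that of the double mutant than the BimKO difference was for 8 of the 9 genes, Ttbk2 being the other, which is a description with no test. Id2, which the labels name, is among the 8, and the 9 were picked for passing in the double mutant. How often the same held over all genes was not counted, so the count is no result about these genes. Cxcr5 differed from WT by 1.36 in Id2KOBimKO, 1.80 in Id2KO (limma adjusted p = 0.000547) and 0.60 in BimKO (adjusted p = 0.657), and Cx3cr1 by -1.44, -1.77 (adjusted p = 0.00105) and -0.82 (adjusted p = 0.657). Myb differed by 1.17, 1.17 and 0.63, Actn1 by 1.28, 1.46 and 0.25, Atp1b1 by 1.20, 1.24 and 0.53, and Pls1 by 1.23, 1.24 and -0.12. These 4 passed in Id2KO (adjusted p = 0.00912, 0.00866, 0.00413 and 0.0118), where 0.111% of all genes did (18.1% at an unadjusted p under 0.05). In BimKO their adjusted p lay between 0.657 and 0.842, and 0 of all genes passed in limma (998 at an unadjusted p under 0.05, 6.91%). Id2 itself was at -1.19, -1.13 and -0.09. The Id2KO arrays also differed from WT in sex-linked transcripts: of 6 such genes tested, 3 rose and 1 fell in Id2KO. The part of this in the Id2KO values was not tested.

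Slc43a1 and Ttbk2 passed in the double mutant and in neither single mutant, which does not show that the mutants differ. Slc43a1 was at 1.04 in the double mutant, 0.81 in Id2KO (limma adjusted p = 0.107) and -0.09 in BimKO. Ttbk2 was at 1.22, 0.20 (adjusted p = 0.472) and 1.10 (adjusted p = 0.374). The BimKO arrays had Ttbk2 at 6.98 and 7.31, close to the double mutant, while the Id2KO arrays, at 6.16 and 6.33, were close to WT. In the direct test Ttbk2 differed by 1.02 between the double mutant and Id2KO (unadjusted p = 0.000342, adjusted p = 0.822) and by 0.12 between the double mutant and BimKO. Ttbk2 and Bcl2l11 lie on the same chromosome, 76 tested genes apart in RefSeq order, and the part of that position in its signal was not tested.

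**Figure D3:**
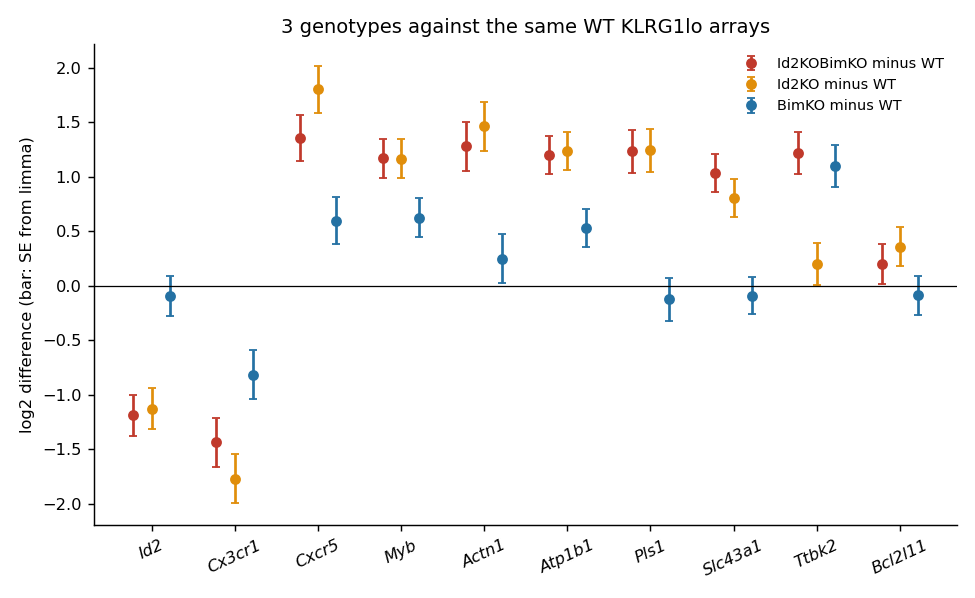
Log2 difference from the same 5 WT KLRG1lo arrays (y axis) for Id2KOBimKO, Id2KO and BimKO (2 arrays each), with bars of 1 SE from limma, for the 9 genes that passed and Bcl2l11. For 8 of the 9 genes the red point lies nearer to the orange point than to the blue one, while for Ttbk2 the red point (1.22) lies by the blue one (1.10) and away from the orange one (0.20).

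Direct tests between the mutants gave few calls. Between Id2KOBimKO and BimKO, which differ by label in Id2 and in the naming of OTI, 0 of 14438 genes (0%) passed in limma (262 at an unadjusted p under 0.05, 1.81%). The largest of the differences among the 9 genes were Pls1 at 1.36 (unadjusted p = 2.34e-05), Slc43a1 at 1.13 (unadjusted p = 4.24e-05) and Id2 at -1.10 (unadjusted p = 0.000122), with adjusted p of 0.306, 0.306 and 0.587. Without BimKO array 1, 3 genes passed (Car1, Ikzf2 and Snora44, named after their values were seen). Between Id2KOBimKO and Id2KO, which differ in Bim by label, 4 genes passed (0.0277%), all of them linked to sex, and 116 had an unadjusted p under 0.05 (0.803%). Xist, the transcript of the inactive X chromosome, was 9.16 and 10.22 on the double mutant arrays and 4.47 and 4.99 on the Id2KO arrays, while the Y-linked Eif2s3y was 3.02 and 3.05 against 7.39 and 8.20. The WT arrays had Xist at 8.78 to 9.97 and Eif2s3y at 3.03 to 3.30, as the double mutant did, and 0 of 6 sex-linked genes tested passed between those groups. For the other genes, the Id2KO arrays differ from the double mutant in sex-linked transcripts and the naming of OTI as well as in the Bim label. The effects of these cannot be told apart.

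Id2 was the one gene of the Id and E protein list that passed, and Cxcr5 the one among the E protein targets. Id3, the sister of Id2, had 8.24 and 7.38 on the mutant arrays and 6.44, 7.17, 6.47, 5.80 and 6.49 in WT. The mutant values were above all WT values, on array 2 by little, and the difference of 1.34 (SE 0.32, 95% interval 0.67 to 2.00) had a limma adjusted p of 0.325. Of the E proteins, Tcf4 was at -0.47 (adjusted p = 0.785), Tcf12 at 0.37 and Tcf3 at -0.02, the last with a sign that changed with median centring or with the arrays used. Of the 12 genes in the list of Id and E proteins that were tested, 0 rose and 1 fell (all genes: 0.0485% and 0.0139%). Of 21 E protein targets, 1 rose and 0 fell, 9 lay above 0, and their median was -0.07.

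Follicular genes, a list built around follicular helper T cells, had 19 members tested. Of these 1 rose (Cxcr5) and 0 fell (all genes: 0.0485% and 0.0139%), and 12 lay above 0, against 49.8% of all genes. The list's median was 0.33, against -0.0016 for all genes. Its median deviation from the WT mean was 0.39 and 0.36 on the mutant arrays and -0.12 to 0.07 on the WT arrays, so the groups did not overlap. The Id2KO arrays (0.24 and 0.37) and the BimKO arrays (0.19 and 0.23) lay above the WT arrays too. Both double mutant arrays were also outside the WT range for cytokine receptors, mitosis genes, NK receptors and markers of CD4 and gamma delta T cells. Btla, an inhibitory receptor, had 8.42 and 8.45 against 7.71, 7.80, 7.39, 7.38 and 7.63, a difference of 0.85 with a limma adjusted p of 0.122. Il6ra, the receptor chain for interleukin 6, was at 0.74 (adjusted p = 0.177), the costimulator Icos at 0.53 and the nuclear protein Tox at 0.47 (adjusted p = 0.785 for both). Bcl6, the repressor that directs follicular helper cells, was on the other side, with 5.44 and 5.38 against 5.97, 5.97, 6.23, 6.52 and 6.01, a difference of -0.73 (adjusted p = 0.392). The list's largest value and its defining repressor thus lay on opposite sides of WT.

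Memory precursor genes had 28 members tested, of which 2 rose (Myb and Actn1) and 0 fell (all genes: 0.0485% and 0.0139%). Above 0 lay 23, and the median was 0.29. The mutant arrays had list medians of 0.33 and 0.26 and the WT arrays -0.17 to 0.32. WT array 2, whose interquartile range of 2.82 was the widest of the WT arrays, held that highest value and lay among the mutant arrays. The list's median was 0.14 against WT arrays 1 and 2 alone and 0.45 against WT arrays 3 to 5 alone. Id3 (1.34) is also in this list. So is Bcl6, which at -0.73 (limma adjusted p = 0.392) was the lowest of the 5 members below 0. Gpr183, a receptor for oxysterols, was at 0.71, the costimulator Cd27 at 0.60 and the homing receptor Ccr7 at 0.61 (limma adjusted p = 0.785 for each).

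Effector genes had 34 members tested, of which 0 rose and 1 fell (Cx3cr1; all genes: 0.0485% and 0.0139%). Above 0 lay 9, and the median was -0.21. The mutant arrays, at -0.13 and -0.24, lay within the WT range of -0.28 to 0.32. S1pr5, a receptor for sphingosine phosphate that lets effector cells leave tissues, had 6.60 and 6.27 against 7.30, 7.40, 7.48, 7.02 and 7.40. The mutant values were below each WT value, and the difference of -0.88 (SE 0.19) had a limma adjusted p of 0.177. Zeb2, a transcription factor of terminal effector cells, was at -0.55, the interleukin 12 receptor chain Il12rb2 at -0.73 and Anxa1 at -0.91 (adjusted p = 0.785 for each). Itgam, the integrin chain CD11b, lay on the other side at 0.80 (adjusted p = 0.785). Gzmb, the granule protease, had 9.92 and 9.72 against 9.89 to 10.80 (median 10.20), and of 17 cytotoxic granule genes 0 rose and 0 fell.

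**Figure D4:**
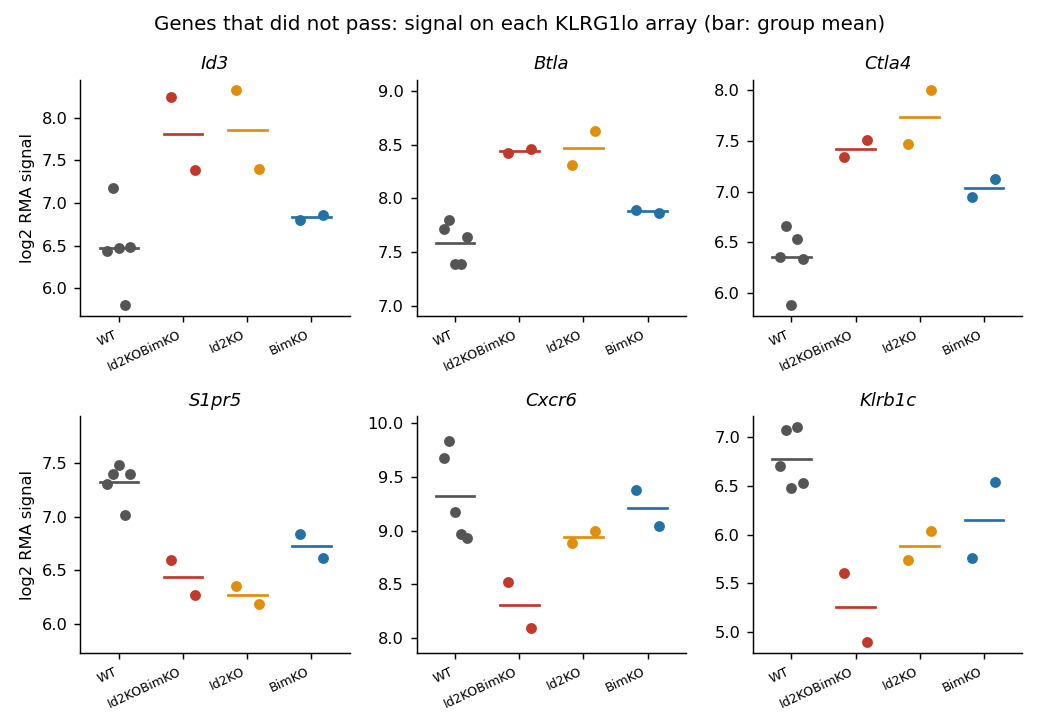
Log2 RMA signal (y axis, which differs between panels and does not start at 0) of 6 genes that did not pass between Id2KOBimKO and WT KLRG1lo cells, with 1 point per array and a bar at the group mean. Both Id2KOBimKO points lie above all 5 WT points for Id3, Btla and Ctla4 and below them for S1pr5, Cxcr6 and Klrb1c.

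Other homing and checkpoint receptors gave values on both sides. Cxcr6, the receptor for a membrane-bound chemokine, had 8.52 and 8.09 against 9.68, 9.83, 9.17, 8.97 and 8.93, a difference of -1.01 (SE 0.28, limma adjusted p = 0.779). Both mutant arrays were below the WT arrays, and so were those for S1pr5. Of all 30 homing receptors 13 lay above 0, with a median of -0.04. Ctla4, an inhibitory receptor, had 7.34 and 7.51 against 6.36, 6.66, 5.88, 6.53 and 6.34, a difference of 1.07 (SE 0.25, adjusted p = 0.266). Both mutant values were above the WT values, while Entpd1 and Nt5e, ectoenzymes that break down extracellular nucleotides, were at -0.70 and -0.86 (adjusted p = 0.785 for both). Of 17 inhibitory receptors, 0 rose, 0 fell and 8 lay above 0 (all genes: 0.0485%, 0.0139% and 49.8%).

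NK receptors lay low as a list: 1 of 17 members tested was above 0, against 49.8% of all genes, and the median was -0.37. In this list 0 rose and 0 fell (all genes: 0.0485% and 0.0139%). Klrb1c, the receptor NK1.1, had 5.61 and 4.90 against 6.71, 7.07, 6.48, 7.10 and 6.53. Its difference was -1.52 (SE 0.33, limma adjusted p = 0.177), and no fold is given, because the mutant signals lay near or below the median of probe sets without a gene name on the same arrays (5.07 and 5.34). Klrc1, an inhibitory lectin-like receptor, was at 8.84 and 8.81 against 9.35 to 10.02, a difference of -0.88 (adjusted p = 0.785). Id2KOBimKO array 1 had a list median of -0.60 and array 2 of -0.17, against -0.10 to 0.10 in WT. Both were thus below the WT arrays, array 1 by more. Markers of NK cells as a cell type had 10 members tested, of which 2 lay above 0, and their summed linear signal was 3171 to 3587 on the mutant arrays and 3285 to 4617 in WT. The NK receptor Ncr1 was at 4.07 and 3.94 against 3.73 to 4.93, below the level of probe sets without a gene name in both groups.

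Mitosis genes had 53 members tested, of which 3 lay above 0 (all genes: 49.8%), with a median of -0.23. Of these members 0 rose and 0 fell (all genes: 0.0485% and 0.0139%). The mutant arrays had list medians of -0.29 and -0.18 and the WT arrays -0.11 to 0.11, without overlap. Sgo2a, which protects chromatid cohesion, had 5.19 and 5.06 against 5.50 to 5.84 (median 5.66), a difference of -0.54 (limma adjusted p = 0.785), with mutant signals close to the level of probe sets without a gene name. The kinesins Kif15 and Kif23 were at -0.46 and -0.42, and Cdca5, which holds sister chromatids together, at -0.41 (adjusted p = 0.785 for each). Of 47 DNA replication genes 19 lay above 0, with a median of -0.08, and the mutant arrays (-0.01 and -0.16) lay within the WT range of -0.22 to 0.29.

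Interferon-stimulated genes lay high: 35 of 37 members tested were above 0, against 49.8% of all genes, with a median of 0.32, and 0 rose and 0 fell. With the filter at the 60th percentile of the array, which keeps genes of higher signal, the median was 0.33 for this list and 0.09 for all genes. Over the 21 alternatives the list median ranged from 0.16 to 0.41. The mutant arrays had medians of 0.34 and 0.30, and WT array 2, at 0.31, again lay among them, the other WT arrays being at -0.18 to 0.09. Rtp4, an interferon-induced chaperone of receptors, had 8.36 and 7.85 against 7.19, 7.80, 7.18, 7.04 and 7.48, a difference of 0.77 (SE 0.21, limma adjusted p = 0.784). Irf7, the regulator that amplifies the interferon response, was at 0.50 and the RNA sensor Oas1a at 0.67 (adjusted p = 0.785 for both). Ribosome biogenesis genes were above 0 in 38 of 40 members, with a median of 0.24, but this median was -0.02 against WT arrays 1 and 2 alone and 0.38 against arrays 3 to 5 alone. Wdr12, a factor for assembly of the large ribosomal subunit, had the largest value in that list, 1.02 (adjusted p = 0.535).

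Of the Bcl-2 family, to which Bim belongs, 19 members were tested and 8 lay above 0 (all genes: 49.8%), with a median of -0.09. In the family 0 rose and 0 fell (all genes: 0.0485% and 0.0139%). The mutant arrays, at -0.11 and -0.04, lay within the WT range of -0.13 to 0.06. The member with the smallest p was Bnip3, a mitochondrial protein (4.53 and 4.64 against 4.86 to 5.81, difference -0.66, below the level of probe sets without a gene name on the mutant arrays), followed by the death promoter Bmf at -0.42 (limma adjusted p = 0.785 for both). The death receptor Fas was at 0.52 and its ligand Fasl at -0.53 (adjusted p = 0.785 for both), and of 23 death receptors and caspases 0 rose and 0 fell.

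Markers of other cells that a sort could hold gave no call. B cell markers had a list median of -0.26 on Id2KOBimKO array 1 and 0.27 on array 2, against -0.39 to 0.47 in WT, and Cd79a had 5.42 and 5.28 against 4.84 to 6.91. Cxcr5, which B cells also carry, had 7.47 on Id2KOBimKO array 1 and 7.07 on array 2, and a link to B cell markers was not tested. Of 11 neutrophil markers 0 lay above 0, with S100a8 at 5.08 and 5.22 against 5.05 to 5.96. Of 17 monocyte and macrophage markers 3 lay above 0, of 12 dendritic cell markers 3 and of 8 platelet markers 2, with medians of -0.17, -0.19 and -0.14. The summed linear signal of the red cell precursor markers was 666 to 1414 on the mutant arrays and 675 to 1259 in WT. Gamma delta T cell markers were above 0 in 1 of 7, and both mutant arrays (-0.20 and -0.25) lay below the WT arrays (-0.14 to 0.19). CD4 and regulatory T cell markers went the other way: the mutant arrays had list medians of 0.07 and 0.19 against -0.05 to 0.04 in WT, and a summed linear signal of 1806 to 1864 against 1302 to 1768, so the groups did not overlap. Of these 14 markers 9 lay above 0 and 5 below, the lowest at -0.38. Ctla4 and Zbtb7b (0.68, limma adjusted p = 0.177), the latter a factor of the CD4 lineage, were among those above. Cd4 itself, as given earlier, lay near the level of probe sets without a gene name in both groups. In these lists 0 genes passed, no marker is listed at 0, and their part in the results was not tested.

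**Figure D5:**
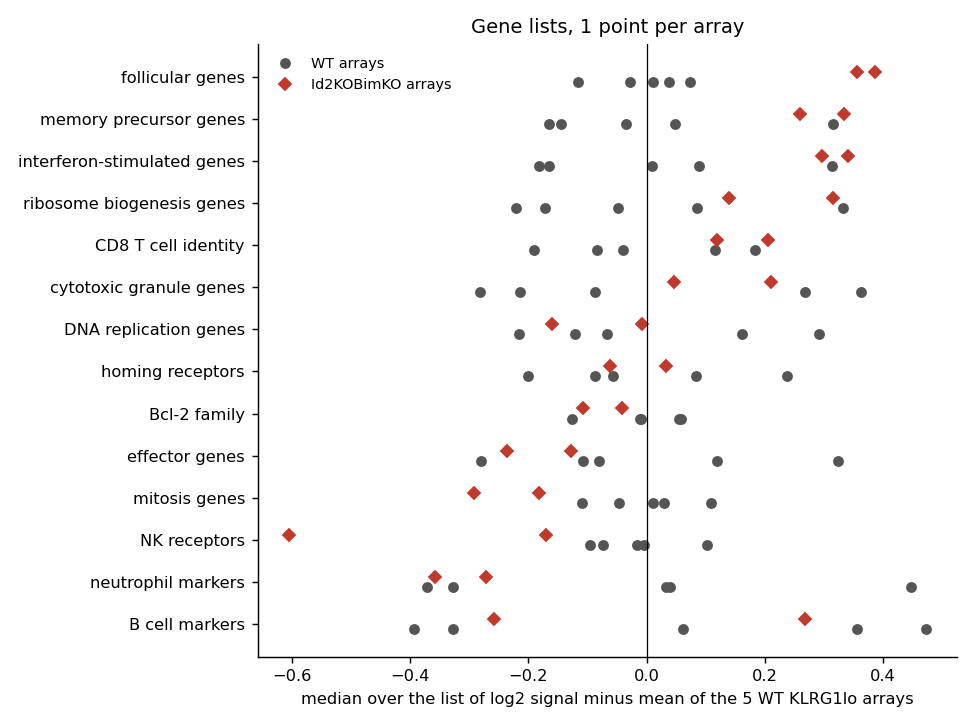
For 14 gene lists, each point is 1 KLRG1lo array: the median over the list of its log2 signal minus the mean of the 5 WT arrays (x axis). Both Id2KOBimKO arrays lie outside the WT range for the follicular genes (0.36 and 0.39), the mitosis genes and the NK receptors, and 1 WT array lies level with them for the memory precursor and interferon-stimulated genes. Not drawn are the cytokine receptors and the CD4 and gamma delta T cell markers, for which both arrays also lie outside the WT range.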

How the data were processed

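RNA of 14 samples was hybridised to single-colour arrays. The authors deposited a linear intensity, the RMA signal, for 34760 probe sets. RMA and the mouse assembly mm9 are named in the submitters' processing notes, without versions. Scanner files were not used, so centring and scale against scanner values stay unknown. The values were turned into log2 with no offset.

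A single gene name belonged to 21640 of them, several to 1321 and none to 11799. Names were updated by Entrez number from RefSeq (GRCm38.p6, 21553 probe sets found), used otherwise only for gene order. The probe set with the highest mean stood for each of 19937 genes, and 14438 with a signal above the array's 40th percentile on at least 2 arrays were tested.

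A model of group means over all 14 arrays was fitted in limma 3.58.1 (R 4.3.3, data.table version 1.17.8), with 9 residual degrees of freedom and 7.99 from the prior. P-values are two-sided, Benjamini-Hochberg adjusted over the genes tested, and every adjusted p is from this fit. The script was tested on simulated data. The number of arrays limits the precision.

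The comparison, its genes and its gene lists were chosen with earlier results of these data known. Named were Id2, Bcl2l11, Klrg1, Cxcr5 and Cx3cr1, then up to 20 genes per direction that passed with arrays apart, then the members of each list that passed or up to 5 with the smallest unadjusted p, the defining markers of other cells and, between mutants, up to 5 genes per direction. Alternatives were other filters, normalizations, variance models, blocks, probe set rules, an offset of 16, a least fold change of 1.5, and arrays left out.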

Additional observations from a re-analysis of the deposited data

Results flagged for a closer look

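Of 79 named genes whose 5 WT KLRG1lo values were checked for an array far from the others, 2 stood out, where chance gives about 1 in 20. Fasl, the death ligand, was 7.17 on WT KLRG1lo array 2 and 6.51 to 6.66 on the other 4, its gap to the nearest being 0.764 of the range. Egr1, an immediate early transcription factor, was 6.32 on WT KLRG1lo array 3 and 6.60 to 6.67 on the other 4 (0.789 of the range). Neither gene passed between Id2KOBimKO and WT.

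Between Id2KOBimKO and Id2KO KLRG1lo cells the difference itself passed for 4 sex-linked genes: Xist was 4.96 higher in Id2KOBimKO (limma adjusted p = 1.3e-05), and on the Y chromosome Eif2s3y was at -4.76, Uty at -3.68 and Kdm5d at -3.13 (adjusted p = 7.43e-09, 1.85e-07 and 7e-05).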

How the results depend on the processing

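The 9 genes kept their direction in all 21 alternatives for Id2KOBimKO against WT, and passed in 10 (Actn1, Slc43a1) to 13 (Id2, Atp1b1) of them; Cxcr5 ranged from 1.14 to 1.55 and Cx3cr1 from -1.59 to -1.32. The count of 9 became 1 with median centring, 0 with a fold change of at least 1.5, 24 with each array's interquartile range as a covariate (the 9 among them), 1 against WT arrays 1 and 2 alone and 18 against WT arrays 3 to 5 alone, and it ranged from 0 to 13 with 1 array left out, where the lone mutant array is assumed to vary like the other groups. It was 9 to 12 with the other settings apart from the block, or 8 on the groups compared alone. With the replicate number as a block, 0 genes passed in limma (334 at an unadjusted p under 0.05). Deviations from the group mean had r = 0.41 across genes between the Id2KOBimKO and WT arrays numbered 1, and -0.44 between those numbered 2. With 2 mutant arrays the deviations of one mirror those of the other, so these are not 2 separate checks. Whether same-numbered arrays share more than a number was not tested. Against BimKO the count of 0 became 1 (Id2) with quantile normalization and 4 with that covariate (Id2, Pls1, Rnf144a, Slc43a1), and ranged from 0 to 3 with 1 array left out. Against Id2KO the count of 4 became 7 on the groups compared alone and ranged from 1 to 4 with 1 array left out. Tcf3 changed sign with median centring (0.046), without Id2KOBimKO array 2 (0.15, against -0.18 without array 1), without WT array 1 or 2 (0.03 each) and against WT arrays 3 to 5 alone (0.11), Klrg1 without Id2KOBimKO array 1 (0.55, against -1.04 without array 2), and Bcl2l11 without Id2KOBimKO array 2 (-0.0088). Causes were not tested beyond the smaller number of arrays. In all 21 alternatives list medians stayed above 0 for the follicular (0.25 to 0.44), memory precursor (0.13 to 0.45) and interferon-stimulated genes (0.16 to 0.41). They stayed below 0 for the effector (-0.36 to -0.09), NK receptor (-0.60 to -0.17) and mitosis genes (-0.32 to -0.16). The sign was thus kept while the size changed with the setting. With 2 mutant arrays and 1 probe set for most genes named, values near background have little precision.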

Other observations

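Among genes outside the rule for naming, chosen here after their values were seen, Ift80 was nearest to the threshold. Ift80, a component of the transport machinery of cilia, had 7.17 and 7.66 on the Id2KOBimKO arrays and 5.89, 6.67, 6.02, 5.80 and 6.35 on the WT arrays. These groups did not overlap, and its difference of 1.27 had a limma adjusted p of 0.0555. It was at 1.14 in Id2KO and 0.91 in BimKO against the same WT arrays. Rcbtb2 had the highest difference of all genes tested, 1.65 (adjusted p = 0.221), with 8.76 and 7.89 against 6.84, 7.54, 6.35, 5.97 and 6.68. St6gal1, which adds sialic acid to glycoproteins, was at 1.38 (adjusted p = 0.177), and Ngly1, which strips glycans from misfolded proteins, at 0.96 (adjusted p = 0.162). Slc15a2, a carrier of small peptides, was at 1.09 (adjusted p = 0.122), with 0.64 in Id2KO and 1.02 in BimKO against the same WT arrays.

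Genes beside the targeted loci were looked at in RefSeq order. Of the 100 tested genes nearest to Id2 (50 on each side), 0 passed and 10 had an unadjusted p under 0.05 (10%, against 3.95% of all genes). In BimKO, where Id2 is not targeted, the second count was 13 (6.91% of all genes), and in Id2KO it was 27 (18.1% of all genes). Around Bcl2l11, 0 passed and 5 had such a p (5%), against 6 in BimKO and 16 in Id2KO. Rnf144a, a ubiquitin ligase and the first tested gene beside Id2, had 7.02 and 6.59 on the Id2KOBimKO arrays and 7.84, 8.07, 7.60, 7.57 and 7.55 in WT. The groups were apart, and its difference was -0.92 (limma adjusted p = 0.177), with -0.99 in Id2KO and 0.17 in BimKO against the same WT arrays. Adi1, an enzyme of methionine salvage that lies 8 tested genes from Id2, was at 0.81 (adjusted p = 0.177), with 0.84 in Id2KO and 0.26 in BimKO.

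On the chromosome of Bcl2l11, Ehd4, a protein of endosome traffic that lies 87 tested genes from it, had 7.40 and 7.36 on the Id2KOBimKO arrays and 6.40, 6.66, 6.09, 6.28 and 5.83 in WT. The arrays were apart, and its difference was 1.13 (limma adjusted p = 0.106), with 0.46 in Id2KO and 0.73 in BimKO.

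Across the genes tested, which are not independent replicates, the array closest to Id2KOBimKO array 1 was Id2KO array 1 (r = 0.992), followed by WT array 2 (r = 0.990), and its r with the other double mutant array was 0.979. All 3 of the first named arrays had the lower background.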
